A study of Mus musculus with 2 samples.

Results

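*Rb1* and *Trp53* are the tumor suppressor genes that Cre removed, together with *Rbl2*, to start small cell lung cancer (SCLC) in both mouse models measured here. They are 2 of the 479 genes that the Xenium panel counted, and they were chosen as the deleted genes that the panel measures. Their remaining probe counts were described in tumor cells, in each class of normal lung cell and by cycling state.

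The retinoblastoma protein, the product of *Rb1*, binds E2F transcription factors and keeps the genes of DNA replication and mitosis off until cyclin-dependent kinases phosphorylate it. The product of *Trp53*, p53, is a transcription factor that is stabilized by DNA damage and other stresses and switches on genes of cell cycle arrest and apoptosis, such as *Cdkn1a* and *Bax*. It also switches on *Mdm2*, whose product marks p53 for degradation. Loss of both tumor suppressors is the rule in human SCLC, a neuroendocrine cancer of the lung. A floxed allele loses the exons between its lox sites, and an RNA from the rest of the gene can still be made, so a probe count does not measure working protein.

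Lung tissue with tumors of 2 genetically engineered models was analysed, with 1 section of each and both from the same paraffin block. The RPR2 mice carried floxed alleles of *Rb1*, *Trp53* and *Rbl2*, and the CRPR2 mice carried the same alleles and a germline *Cracd* knockout. At an age of 10 weeks, adenoviral Cre was given through the trachea, and the lungs were taken 6 months later. The deletion of the floxed alleles therefore concerns the cells that Cre reached and their progeny, and cells outside the tumors were not genotyped. The germline *Cracd* knockout is not confined to those cells. The labels name C57BL/6 mice of both sexes without giving the sex of either animal, and neither section is compared with a mouse without the deletions. With 1 section per model there are no replicates and no test. The intervals given are exact 95% intervals (Poisson for summed counts, conditional binomial for ratios, Clopper-Pearson for shares) and cover counting error only, not the spread between mice or tumors.

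The sections held 154818 (RPR2) and 342845 (CRPR2) segmented cells with 16313950 and 37348565 gene transcripts, and 8 cell identifiers occurred in both. Medians were 100 and 101 transcripts per cell, and 1903 and 2236 cells under the minimum of 20 transcripts were dropped. *Rb1* gave 68285 transcripts in RPR2 and 309585 in CRPR2, and *Trp53* gave 26880 and 50072. Levels are counts per 1000000 gene transcripts (CPM), with counts and totals summed over the cells of a class. The highest of the 20 negative control probes stood at 9.93 CPM (RPR2) and 8.43 CPM (CRPR2), far under the level of either gene in every class of at least 200 cells per section.

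In the GRCm38 genome with GENCODE M21 annotation, *Rb1* (ENSMUSG00000022105) lies on the minus strand of chromosome 14 at chr14:73183673-73325822, and its transcript Rb1-201 has 27 exons. *Trp53* (ENSMUSG00000059552) lies on the plus strand of chromosome 11 at chr11:69580359-69591873, and its transcript Trp53-203 has 11 exons. The positions of the Xenium probes within these exons are not given in the sources used here. The counts therefore do not check the genotype labels, since a probe outside the deleted exons can still bind the shortened RNA. The probes of the 2 genes may also differ in number and binding, so a difference between the counts of the 2 genes within a class is not read as a difference in their expression.

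Tumor cells were those with 4 or more transcripts of 5 neuroendocrine genes together, *Chga*, *Chgb*, *Scg5*, *Snap25* and *Celf3*. The granins *Chga* and *Chgb* and *Scg5* belong to secretory granules, *Snap25* to vesicle release and *Celf3* to neuronal RNA splicing. This rule gave 13782 tumor cells in RPR2 and 160674 in CRPR2. Cells with 1 or no such transcript, 136510 and 137569, are called other cells, and 2623 and 42366 cells with 2 or 3 fell between. The tumor cells carried neuroendocrine genes that the rule did not use. *Insm1*, a transcription factor of neuroendocrine cells, was at 9526 CPM in RPR2 tumor cells against 114 CPM in the other cells, and at 9623.5 CPM against 836 CPM in CRPR2. *Neurod1*, which marks another SCLC subtype, stood at 20.7 and 31.8 CPM. Of 7 such check genes on the panel, *Neurod1* was the only gene under 8-fold in either section.

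Classes of normal lung cells were gated among the other cells by marker genes, which include neither *Rb1* nor *Trp53*. The name normal rests on these markers and on 1 or no transcript of the 5 tumor genes. It does not show that a class holds no tumor cells. In each section, 7 classes had at least 200 cells. They were endothelial-like (41485 and 21159 cells in RPR2 and CRPR2), alveolar type 2-like (AT2-like, 10358 and 15402), fibroblast-like (6241 and 8128), airway secretory-like (3171 and 4156), ciliated-like (3617 and 981), macrophage-like (1287 and 4324) and a class with mural markers (5038 and 3177). The mural markers are those of smooth muscle and pericytes, but the striated muscle genes *Myoz2*, *Tnnc1*, *Trdn* and *Pln* were among its 10 leading genes, so it is called the mural-marker class. *Krt5*, a basal cell keratin, was among the leading genes of the airway secretory-like class in CRPR2. Transcripts of tumor cells and of their neighbors can mix at the borders drawn around expanded nuclei. Over the 7 classes, the 7 neuroendocrine check genes summed to between 0.889% and 4.53% of their tumor cell level in RPR2, highest in the ciliated-like class, and to between 2.85% and 14.9% in CRPR2, highest in the airway secretory-like class. Conversely, the markers of the 7 classes stood in tumor cells at 1.09% to 8.17% of their own class's level in RPR2 and at 0.894% to 11.4% in CRPR2, and none of them was at 0. Whether these shares come from mixing or from the cells' own transcripts was not tested. The part of either in the levels below was not tested, and for some classes values without cells that hold neuroendocrine transcripts are given.

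*Rb1* transcripts were most abundant in the tumor cells. In RPR2, *Rb1* stood at 10393 CPM in tumor cells (10237.5 to 10550.0) and at 3429 CPM in all other cells (3399 to 3459.5). In CRPR2 it stood at 11582.5 CPM (11534 to 11631) and 4054 CPM (4022 to 4086.5). These are ratios of tumor over other cells of 3.03 and 2.86, or 1.60 and 1.51 on the log2 scale. Of the 479 panel genes, 22.1% in RPR2 and 17.5% in CRPR2 were at least 2-fold higher in tumor cells, *Rb1* among them, and 85 and 64 genes had a larger ratio than *Rb1*. The median gene of the panel had a log2 ratio of -1.06 in RPR2 and -1.17 in CRPR2, so *Rb1* lay 2.66 and 2.68 above it.

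Each of the 7 normal classes had less *Rb1* than the tumor cells in both sections, with every interval of the ratio clear of 1. The macrophage-like cells came closest, with 6337 CPM in RPR2 and with 5624 CPM in CRPR2. Tumor cells exceeded them 1.64-fold and 2.06-fold. Next were the endothelial-like cells, at 4177 and 4324 CPM, and the ciliated-like cells, at 4048 and 3827 CPM. The intervals of these neighbors overlapped in RPR2, where their log2 ratio was 0.05 (-0.03 to 0.12). Fibroblast-like cells followed at 3145.5 and 3606 CPM, the latter not told apart from the ciliated-like cells of that section (log2 ratio, 0.09, -0.07 to 0.24).

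The lowest *Rb1* levels were those of the remaining epithelial classes and the mural-marker class. AT2-like cells, which make surfactant, held 2073 and 2525 CPM in RPR2 and CRPR2. The mural-marker class held 1998 and 2714 CPM, and it could not be told apart from the AT2-like cells in either section. Airway secretory-like cells, which coat the airways with mucus and secretory proteins, had the lowest level in RPR2, 1625 CPM, but 2997 CPM in CRPR2. The tumor cells thus exceeded this class 6.40-fold in RPR2 and 3.86-fold in CRPR2. Counting only airway secretory-like cells without any transcript of the 5 tumor genes or the 7 check genes, the levels were 1528 and 1969 CPM, closer to each other.

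**Figure D1:**
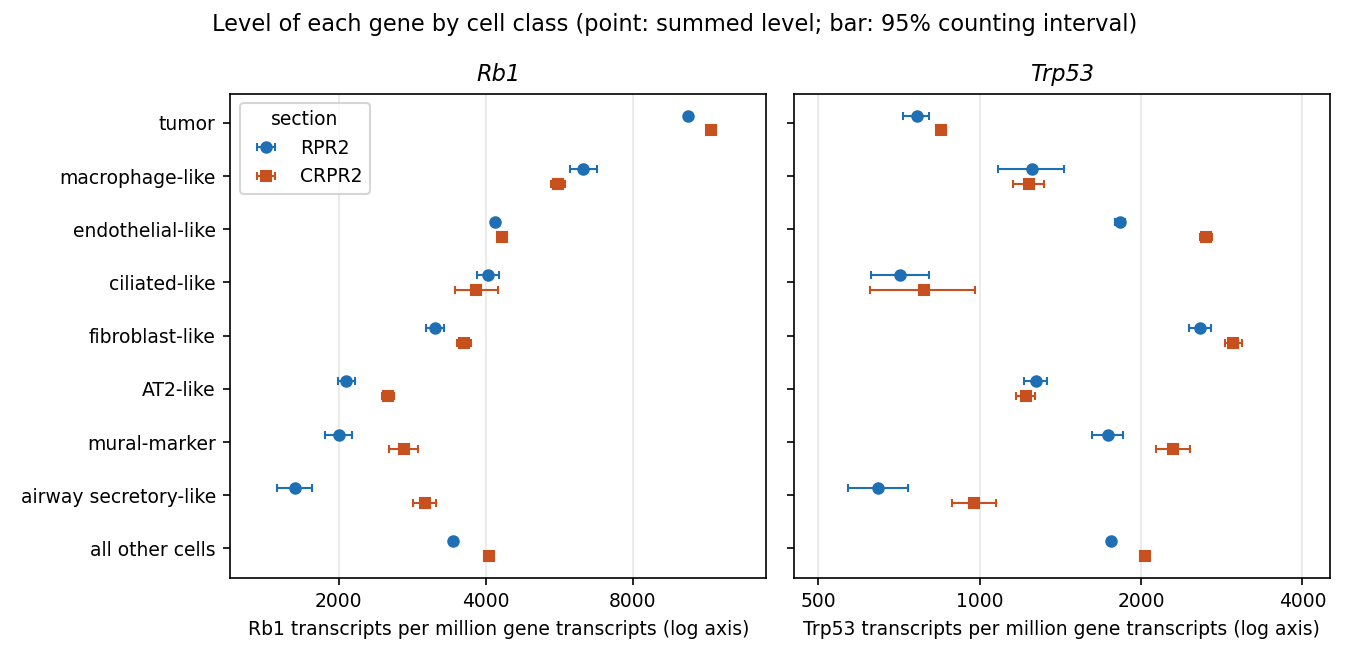
Level of *Rb1* (left) and *Trp53* (right) in each cell class of the RPR2 (circles) and CRPR2 (squares) sections, in CPM of gene transcripts on a log axis, with exact 95% counting intervals. *Rb1* was highest in tumor cells, at 10393 and 11582.5 CPM, and *Trp53* was highest in fibroblast-like cells, at 2579 and 2973 CPM, with tumor cells at 762 and 845 CPM.

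*Trp53* showed another pattern. In RPR2, tumor cells held 762 CPM (721 to 806) and all other cells 1757 CPM (1735 to 1778). In CRPR2 the levels were 845 CPM (832 to 859) and 2032 CPM (2010 to 2055). Tumor cells had 0.434 of the level of other cells in RPR2 and 0.416 in CRPR2, or -1.20 and -1.27 on the log2 scale. A ratio of this size was common on the panel, where 50.9% of genes in RPR2 and 52.4% in CRPR2 were at least 2-fold lower in tumor cells. *Trp53* lay 0.14 and 0.10 below the median gene on the log2 scale, with 248 and 249 genes above it and 230 and 229 below, so its ratio lay near the middle of the panel.

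Among normal classes, *Trp53* was highest in fibroblast-like cells, with 2579 and 2973 CPM. These cells build the connective tissue of the lung, and tumor cells had 0.296 and 0.284 of their level. Endothelial-like cells followed at 1827 and 2646 CPM and the mural-marker class at 1732 and 2299 CPM, and both were told apart from each other in CRPR2 but not in RPR2. AT2-like cells (1273 and 1218 CPM) and macrophage-like cells (1249.7 and 1234 CPM) overlapped in both sections. All 5 of these classes were above the tumor cells in both sections.

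The airway classes were near the level of the tumor cells. Ciliated-like cells, whose cilia clear the airways, had 712 and 787 CPM, and the interval of the ratio to tumor cells spanned 1 in both. Airway secretory-like cells had less than the tumor cells in RPR2, 647 CPM, but more in CRPR2, 978 CPM. As a log2 ratio, tumor over airway secretory-like cells was 0.24 in RPR2 (0.04 to 0.44) but -0.21 in CRPR2 (-0.35 to -0.07). With all cells of these classes, tumor cells and the airway classes were thus within 1.18-fold of each other in *Trp53* in both sections. The distance was larger for airway secretory-like cells without neuroendocrine transcripts, a choice made after seeing the data. Those cells had 616 CPM in RPR2 and 1151 CPM in CRPR2, with log2 ratios of 0.31 (0.08 to 0.54) and -0.445 (-0.62 to -0.265).

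Smaller sets of cells extended the range, and they were chosen after the classes had been seen. T cell-like cells (146 in RPR2 and 423 in CRPR2) had the most *Trp53* of the named classes, 6448 CPM (4944 to 8266) and 7817 CPM (6849.6 to 8883). They were thus above every larger class, at 8.46 and 9.25 times the tumor cell level. Lymphatic endothelial-like cells (115 and 201) had 3383.5 and 3423 CPM, and mesothelial-like cells (370 and 175) 1530 and 1807 CPM. In neutrophil-like cells (256 and 194) only 4 and 10 *Trp53* transcripts were counted, or 285 CPM (77.7 to 730.3) and 876 CPM (420.3 to 1612). Cells with *Ager* and *Aqp5*, genes of the flat alveolar type 1 cells (1155 and 459 cells), had 1478 and 2384.5 CPM.

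*Rb1* in these sets stayed under the tumor cells as well. The T cell-like cells had 6032 and 5921 CPM, near the level of the macrophage-like cells. The remaining sets held between 1410 and 3719 CPM of *Rb1*. Of the 12 sets and classes of normal cells described, all 12 had less *Rb1* than the tumor cells of their section.

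The number of *Rb1* transcripts per *Trp53* transcript summarizes both patterns, as a quantity to compare between classes and not as a ratio of the genes' expression. It was 13.6 (12.9 to 14.4) in RPR2 tumor cells and 13.7 (13.5 to 13.9) in CRPR2 tumor cells. In all other cells it was 1.95 and 2.00. Ciliated-like cells had 5.69 and 4.86 and macrophage-like cells 5.07 and 4.56, while fibroblast-like cells had 1.22 and 1.21 and T cell-like cells 0.936 and 0.757. Tumor cells of the 2 sections thus had the same value within counting error, and the highest of all classes of at least 200 cells.

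Single tumor cells carried few transcripts of either gene. Without thinning, 33.7% of RPR2 tumor cells and 29.5% of CRPR2 tumor cells had no *Rb1* transcript, 32.7% and 33.1% had 1, and 14.4% and 16.5% had 3 or more, up to 12 and 14 in a cell. For *Trp53*, 91.6% and 90.8% of tumor cells had none, and 0.0435% and 0.0454% had 3 or more. Since deeper cells catch more transcripts, each cell was also thinned to 50 transcripts. *Rb1* was then found in 40.5% of RPR2 tumor cells (39.6% to 41.3%) and 44.5% of CRPR2 tumor cells (44.2% to 44.7%), against 15.7% and 18.2% of other cells. *Trp53* was found in 3.69% (3.38% to 4.03%) and 4.03% (3.94% to 4.13%) of tumor cells, against 8.46% and 9.68% of other cells. Before thinning, the shares with *Trp53* were 8.38% and 9.16% of tumor cells, whose median depth was 111 and 108 transcripts, and 16.2% and 18.4% of other cells, with medians of 100 and 99.

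Detection of *Trp53* in a tumor cell was nearly the same whether *Rb1* was detected or not. After thinning, 3.86% of RPR2 tumor cells with *Rb1* had *Trp53* (3.36% to 4.41%) and 3.58% of those without *Rb1* (3.18% to 4.01%). In CRPR2 the shares were 4.09% (3.94% to 4.24%) and 3.99% (3.86% to 4.12%). The intervals overlapped in both sections. Among other cells, *Trp53* was found more often in cells with *Rb1*, 9.39% against 8.28% in RPR2 and 10.7% against 9.47% in CRPR2. The other cells mix classes with different levels of both genes, and the part of that mixture was not tested.

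Both levels changed with the number of transcripts of the 5 tumor genes in a cell. In RPR2, *Rb1* was at 3418 CPM in cells with none, at 3798 CPM with 1, at 7019 CPM with 2, at 8303 CPM with 3 and at 9141 CPM with 4. It was 10852 CPM with 8 to 11 and 10149 CPM with 16 or more. *Trp53* ran the other way, from 1758 CPM with none to 1703 CPM with 1, 1008 CPM with 2, 1129 CPM with 3 and 906 CPM with 4, and stayed between 692 and 822 CPM from 5 on. Most of the change thus lay below the threshold of 4. *Rb1* still differed beyond counting error between 4 (8599 to 9709) and 8 to 11 (10572 to 11138). Median depth was 68 transcripts in cells with 2 and 179.5 in cells with 16 or more. Before thinning, 40.2% and 67.5% of these cells had a transcript of *Mki67* or *Top2a*.

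In CRPR2 the same steps were more gradual. *Rb1* was at 3745 CPM with no transcript of the 5 genes, at 5737 CPM with 1, at 8204 CPM with 2, at 9607 CPM with 3 and at 10732 CPM with 4, and between 11161 and 11817 CPM from 5 on. *Trp53* went from 2135 CPM with none to 1472, 1094, 940 and 864.5 CPM with 1, 2, 3 and 4. The cells with 1 transcript, which count among the other cells, were 24706 in CRPR2 and 3783 in RPR2. In CRPR2 they lay between tumor cells and cells without such transcripts for both genes, and 45.3% of them had a cycling transcript before thinning.

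**Figure D2:**
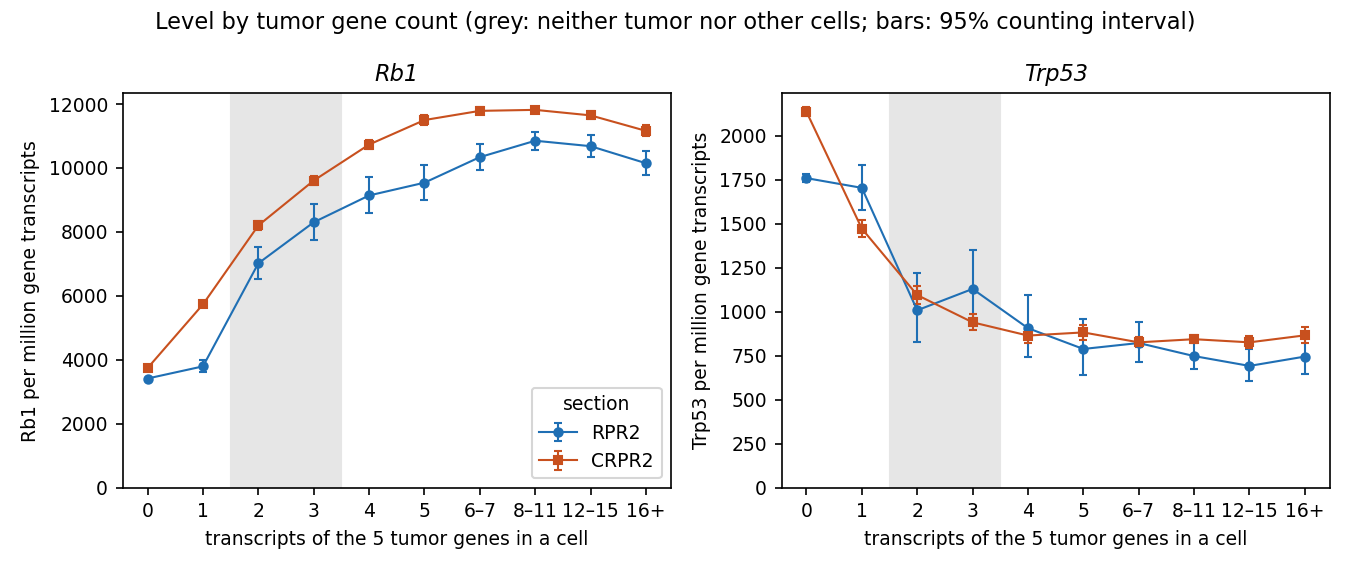
Level of *Rb1* (left) and *Trp53* (right), in CPM of gene transcripts, against the number of transcripts of the 5 tumor genes in a cell, for RPR2 (circles) and CRPR2 (squares), with exact 95% counting intervals. *Rb1* went from 3418 and 3745 CPM in cells with none to 10852 and 11817 CPM in cells with 8 to 11, and *Trp53* from 1758 and 2135 CPM to 906 and 864.5 CPM at 4, with the shaded cells (2 or 3 transcripts) between.

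*Rb1* in tumor cells varied with the transcripts of other classes in them, and in both sections it was lowest in the group with most of them. In CRPR2, *Rb1* was at 14507 CPM (13691 to 15359.5) in the 1334 tumor cells without any transcript of a normal class marker, at 13712 CPM with 1, at 13455 CPM with 2 or 3, at 12832 CPM with 4 to 7 and at 10639.7 CPM with 8 or more. The intervals of the first groups of CRPR2 overlapped one after the other, with 13296 to 14137 CPM at 1 and 13271.5 to 13641 CPM at 2 or 3. In RPR2 the first group held 215 cells, with 12224 CPM (10403 to 14272), and the last 6201 cells, with 9718 CPM. The groups of RPR2 with 1, with 2 or 3 and with 4 to 7 had 10804.5, 11163 and 11321 CPM. They did not fall in order, and their intervals overlapped. *Trp53* was 837 CPM (649.7 to 1061) and 831 CPM in the first and last groups of CRPR2, and 535 CPM (215 to 1102) and 797 CPM in RPR2. In the cells with no marker of another class, *Trp53* was thus still counted, with 7 and 68 transcripts. The cells without such markers were also the shallowest, with a median of 56 transcripts in both sections against 140 and 129 in the last groups.

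Over ranges of depth, *Trp53* in tumor cells of both sections was lowest in the cells with the fewest transcripts and highest in those with the most. The intervals of these ends overlapped. In RPR2 the range of 50 to 99 transcripts had 658 CPM (578 to 745), clear of 838 CPM (766.5 to 915) at 150 or more. In CRPR2 these ranges had 823 CPM (798 to 849) and 871 CPM (847.5 to 895), which overlapped. *Rb1* lay between 9616 and 10583 CPM over 4 depth ranges of RPR2 tumor cells and between 10888 and 11931 CPM in CRPR2, and *Trp53* between 583 CPM (14 transcripts) and 838 CPM and between 788 and 871 CPM. Other cells of CRPR2 were an exception for *Rb1*. Those with 20 to 49 transcripts had 6434 CPM and those with 150 or more 3553 CPM, while the same ranges of RPR2 had 3449 and 3265 CPM. With the other cells of CRPR2 restricted to those of 100 transcripts or more, a choice made after seeing the data, the log2 ratio of *Rb1* was 1.65 in place of 1.51.

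Cells were called cycling when a transcript of *Mki67* or *Top2a*, genes of dividing cells that E2F factors drive, was left after thinning. By this rule 42.9% of RPR2 tumor cells (42.1% to 43.8%) and 50.3% of CRPR2 tumor cells were cycling, against 2.19% and 16.1% of other cells. *Rb1* was somewhat higher in cycling tumor cells, at 11376.5 against 9633 CPM in RPR2 and at 12323 against 10783 CPM in CRPR2. The log2 ratios were 0.24 (0.20 to 0.28) and 0.19 (0.18 to 0.20). In the few tumor cells without any marker transcript of another class, the intervals spanned 0, with 0.011 (-0.53 to 0.55) in RPR2 and 0.14 (-0.06 to 0.35) in CRPR2. For *Trp53* the levels were 763 against 766 CPM in RPR2, with a log2 ratio of -0.01 (-0.17 to 0.16), and 871 against 820 CPM in CRPR2, with a log2 ratio of 0.09 (0.04 to 0.13). Over the panel genes with at least 100 transcripts in these tumor cells, the median log2 ratio was -0.16 in RPR2 and -0.12 in CRPR2. Of them, 35 of 305 and 64 of 458 had a higher ratio than *Rb1*.

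The level of *Rb1* followed the number of *Mki67* and *Top2a* transcripts in steps, except in the cells with most of them. Without thinning, *Rb1* was at 9307 CPM in RPR2 tumor cells with no such transcript, at 9902 CPM with 1, at 10832.5 CPM with 2 or 3, at 12355 CPM with 4 to 7 and at 11736 CPM with 8 or more. In CRPR2 the steps were 10283, 11147.5, 12158, 13060 and 12102 CPM. *Trp53* ran from 758 to 825 and 805 CPM over the first and last 2 steps of RPR2 and from 790.5 to 912.5 and 883 CPM in CRPR2. Median depth went from 97 to 177 transcripts over these steps in RPR2 and from 93 to 167 in CRPR2.

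Cycling was compared for only some of the listed pathway genes, namely *Ezh2*, *E2f1*, *Cdkn1a*, *Mdm2*, *Rps27l* and *Bax*. Each of these was higher in cycling tumor cells, apart from *Bax* of CRPR2. Among panel genes with at least 100 transcripts in these tumor cells, the upper quartile of this log2 ratio was 0.065 (RPR2) and 0.055 (CRPR2). *Ezh2*, a chromatin modifier that E2F factors induce, had log2 ratios of 0.75 in RPR2 and 0.56 in CRPR2, and *E2f1*, which the retinoblastoma protein binds, 0.42 and 0.08. *Cdkn1a*, the kinase inhibitor p21, had 0.86 and 0.46. *Mdm2* and *Rps27l*, known p53 targets, lay between 0.05 and 0.17 in both sections. *Bax*, another target, had 0.10 in RPR2, while in CRPR2 it stood at 4792 against 4793 CPM, with an interval of the log2 ratio that spanned 0 (-0.02 to 0.02).

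Among normal classes, *Rb1* was higher in cycling cells in 4 of 7 classes of RPR2 and in 6 of 7 of CRPR2, and lower in none. The largest ratios in CRPR2 were those of the mural-marker class, 5618 against 2442.5 CPM (log2 ratio, 1.20), and of the airway secretory-like class, 5330 against 2384.5 CPM (1.16). In all 7 classes of CRPR2, and in each class of RPR2 except the ciliated-like class, cycling cells also held more neuroendocrine transcripts than the others. In RPR2 the 7 check genes summed to 10950 CPM in cycling and 1917 CPM in other airway secretory-like cells. They were at 4128 and 925 CPM in AT2-like cells of RPR2 and at 1754 and 716.5 CPM in its macrophage-like cells. *Rb1* was higher in cycling cells of each of these classes. In the airway secretory-like class of CRPR2 the 7 check genes summed to 24164 CPM in 671 cycling cells and to 6814 CPM in 2818 others, and in the mural-marker class to 7789 and 2163 CPM. In the endothelial-like class of RPR2, where the check genes were at 1084 and 649 CPM, the log2 ratio of *Rb1* was 0.14 (-0.07 to 0.34). In the mural-marker class of RPR2 the check genes were at 1680 and 999 CPM. The log2 ratio of *Rb1* there was 0.70 (0.002 to 1.32), from 59 cycling cells with 21 *Rb1* transcripts. In the ciliated-like class of RPR2 the check genes were at 2392 and 3360 CPM. The log2 ratio of *Rb1* there was 0.54 (-0.14 to 1.14), from 30 cycling cells with 22 *Rb1* transcripts. The part of admixture was not tested.

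*Trp53* was higher in cycling cells in 3 of 7 classes of each section, the endothelial-like, fibroblast-like and mural-marker classes. In the endothelial-like class it was at 2452 against 1827 CPM in RPR2 and at 3475 against 2561 CPM in CRPR2 (log2 ratios, 0.42 and 0.44). The check genes in cycling and other cells of this class of CRPR2 were at 8831 and 2471 CPM. In the fibroblast-like class of CRPR2 they were at 5525 and 2361 CPM, and the part of admixture was not tested. The mural-marker class had log2 ratios of 0.94 and 1.47, with only 59 and 202 cycling cells. In macrophage-like cells the sign was the opposite, with -0.79 (-1.66 to -0.03) in RPR2 and -0.25 (-0.52 to 0.01) in CRPR2. In tumor cells, as given above, the ratio of *Trp53* was close to 0.

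**Figure D3:**
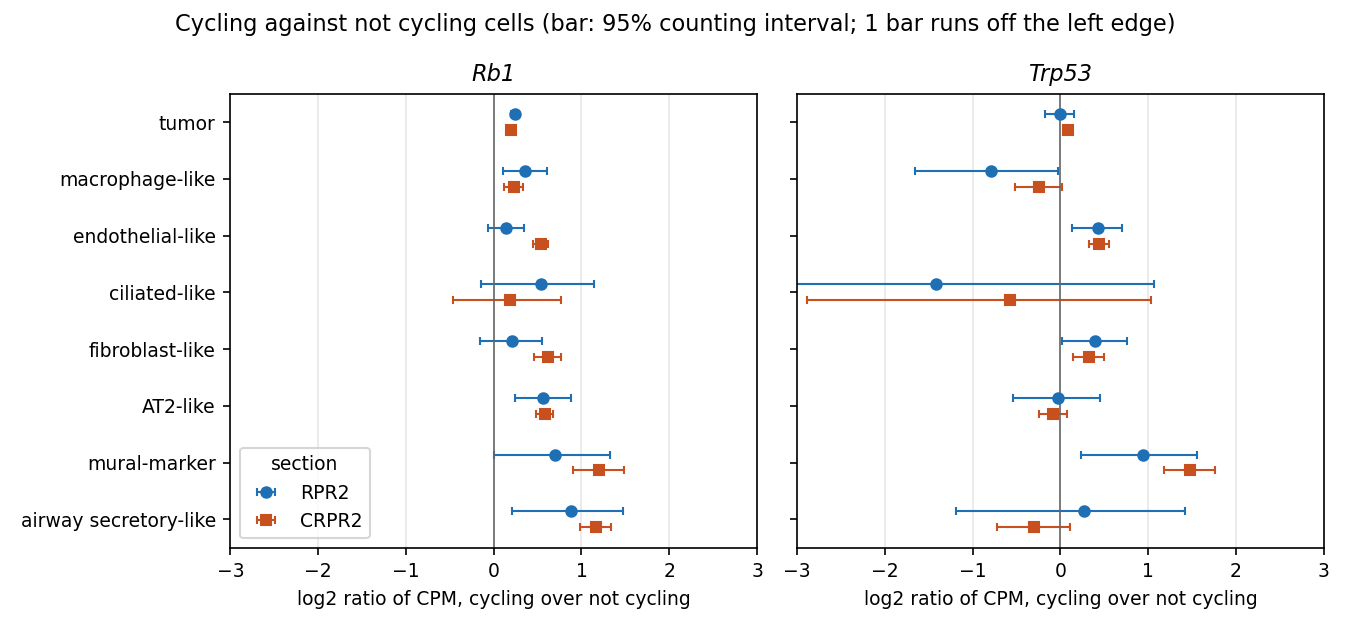
Log2 ratio of the level in cycling over other cells for *Rb1* (left) and *Trp53* (right), in tumor cells and 7 normal classes of RPR2 (circles) and CRPR2 (squares), with exact 95% counting intervals. *Rb1* lay above 0 in tumor cells of both sections (0.24 and 0.19), while *Trp53* lay near 0 there (-0.01 and 0.09). In macrophage-like cells *Trp53* lay below 0 (-0.79 and -0.25), with an interval that spanned 0 in CRPR2. It also lay below 0 in ciliated-like cells (-1.42 and -0.575), with intervals that spanned 0 in both sections.

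Between the sections, tumor cells differed little in either gene. The log2 ratio of CRPR2 over RPR2 was 0.16 (0.13 to 0.18) for *Rb1* and 0.15 (0.07 to 0.23) for *Trp53*. Over the 460 panel genes with at least 100 transcripts in tumor cells, the median was 0.04 and the quartiles were -0.31 and 0.42, so both genes lay within the middle range. *Cracd* loss, the section and the animal cannot be told apart here.

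Some other classes differed more. *Rb1* had log2 ratios of CRPR2 over RPR2 of 0.88 in airway secretory-like cells, 0.44 in the mural-marker class and -0.17 (-0.27 to -0.07) in macrophage-like cells. *Trp53* had 0.60 (0.36 to 0.83) in airway secretory-like cells, 0.53 (0.49 to 0.58) in endothelial-like cells and -0.02 (-0.24 to 0.21) in macrophage-like cells. The neuroendocrine check genes in the same classes were also higher in CRPR2, at 10953 against 2294 CPM in airway secretory-like cells and at 3241 against 663 CPM in endothelial-like cells. A further choice, made after seeing the data, left out the cells with neuroendocrine transcripts. Airway secretory-like cells then had 1528 (RPR2) and 1969 CPM (CRPR2) of *Rb1*, and 616 and 1151 CPM of *Trp53*. Endothelial-like cells had 1816.5 and 2544 CPM of *Trp53*. Beyond these values, the part of such transcripts in the differences was not tested.

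Few partners of the 2 genes were on the panel. Of 43 genes of E2F control and the cell cycle that were listed for this comparison, 8 were on the panel, and all 8 were at least 2-fold higher in tumor than in other cells in both sections, where 22.1% and 17.5% of all panel genes were. Their median log2 ratio was 3.78 in RPR2 and 1.78 in CRPR2, against -1.06 and -1.17 over all panel genes. *E2f1* stood at 4766 against 553 CPM in RPR2 and at 5613 against 1521 CPM in CRPR2, 8.62-fold and 3.69-fold higher. *Ezh2* was 7.91-fold and 3.22-fold higher. The mitotic genes *Cenpf* and *Ube2c* had log2 ratios of 5.02 and 4.63 in RPR2 and of 2.28 and 1.80 in CRPR2. *Mki67*, *Top2a*, the replication factor *Pclaf* and the microtubule regulator *Stmn1* made up the rest, with ratios from 5.38-fold to 22.1-fold in RPR2 and from 2.79-fold to 3.44-fold in CRPR2. The other cells of CRPR2 had more of these genes, with *Mki67* at 3349 CPM against 433 CPM in RPR2, beside their larger share of cycling cells.

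*E2f1* was low in most normal classes. *E2f1* was between 76.7 and 638 CPM in 6 of the 7 classes of RPR2 and at 3354 CPM in macrophage-like cells. In CRPR2 it was between 379 and 1444 CPM in the same 6 classes and at 3816 CPM in macrophage-like cells. Among the tumor cells and these 7 classes, the macrophage-like cells were thus second to the tumor cells in *E2f1* and in *Rb1* alike. *Cdkn1a* and *E2f1* were the only members on the panel of 17 genes listed for the pathway of the retinoblastoma protein.

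Of 30 listed p53 regulators and targets, 6 were on the panel and are given here. In RPR2, 2 of the 6 were at least 2-fold higher in tumor cells (*Egfr*, a growth factor receptor, 5.66-fold, and *Thbs1*, a matrix protein that restrains vessel growth, 2.41-fold) and none was lower by as much, where 22.1% of all panel genes were higher and 50.9% lower. In CRPR2, 1 of the 6 was higher (*Egfr*, 5.83-fold), which is near the 17.5% of all panel genes, and none was lower, where 52.4% of panel genes were. At 1.5-fold, 4 and 3 of the 6 were higher, beside 25.1% (RPR2) and 23.0% (CRPR2) of all panel genes. The median log2 ratio of the 6 was 0.73 in RPR2 and 0.50 in CRPR2, and that of all panel genes -1.06 and -1.17.

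The best known p53 targets were counted in tumor cells at or above the level of other cells. *Mdm2* was at 7169.5 against 5045 CPM in RPR2 and at 6403 against 5135 CPM in CRPR2, 1.42-fold and 1.25-fold higher. *Bax*, which opens mitochondria in apoptosis, was 1.77-fold and 1.25-fold higher, and the ribosomal protein relative *Rps27l* 1.56-fold and 1.25-fold. *Cdkn1a* was 1.17-fold higher in RPR2 and 1.60-fold higher in CRPR2. All 4 genes thus lay within 2-fold of the other cells while *Trp53* was at 0.434 and 0.416 of theirs. By class, *Mdm2* was highest in ciliated-like cells, at 17611 and 17970.5 CPM, where *Trp53* was among the lowest, and *Cdkn1a* in RPR2 was highest in endothelial-like cells, at 7518 CPM against 4897 CPM in tumor cells. In CRPR2, *Cdkn1a* was highest in ciliated-like cells, at 9339 CPM, against 6728 CPM in tumor cells.

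**Figure D4:**
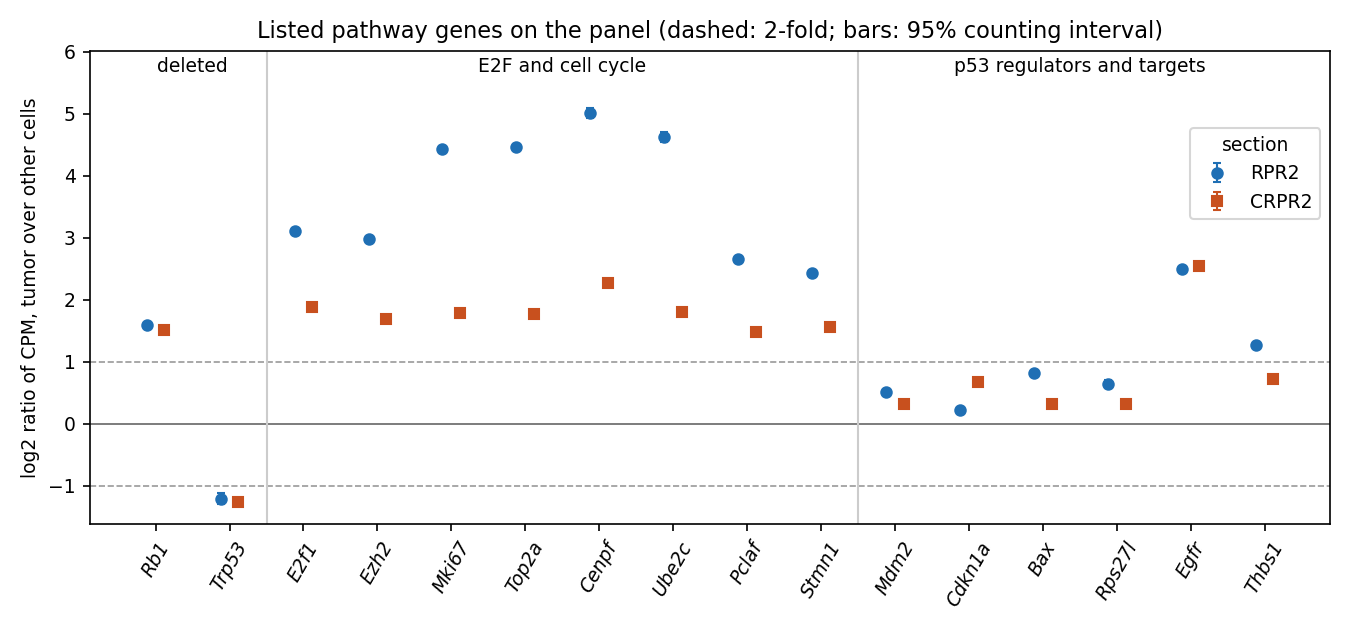
Log2 ratio of the level in tumor over other cells for *Rb1*, *Trp53* and the listed pathway genes on the panel, in RPR2 (circles) and CRPR2 (squares), with exact 95% counting intervals and dashed lines at 2-fold. The 8 E2F and cell cycle genes lay above the upper line in both sections, *Mdm2*, *Cdkn1a*, *Bax* and *Rps27l* lay between 0 and that line, and *Trp53* lay below the lower line, at -1.20 and -1.27.

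Over the 16 points made by tumor cells and 7 normal classes of both sections, the genes whose levels followed *Rb1* and *Trp53* were different. Pearson's r of log2(CPM + 10) was computed for the 399 panel genes with at least 100 CPM in 1 class or more. It is a description, since classes of a section share slide and panel and may share mixed transcripts. The 5 genes most like *Rb1* were *Lhx2* (r = 0.86), *Pclaf* (0.79), *Gad1* (0.79), *Akt1* (0.78) and *E2f1* (0.77), of which *Lhx2* is a LIM homeobox factor, *Gad1* makes the transmitter GABA and *Akt1* is a growth signaling kinase. The 5 genes most like *Trp53* were *Fbln5* (0.93), *Fibin* (0.91), *Mmrn1* (0.90), *Gng11* (0.89) and *Pmp22* (0.89). *Fbln5* belongs to elastic fibers and *Mmrn1* to lymphatic endothelium and platelets. *Rb1* and *Trp53* themselves had r = -0.20.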

How the data were processed

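The deposited files hold, for each section, raw counts of the transcripts that the authors' instrument assigned to each cell, without normalization. Xenium In Situ reads probe sets by imaging in formalin-fixed paraffin sections. Per the study's methods, cells were segmented by nuclear expansion and processed with Xenium Explorer, and the submitters' processing notes list Seurat 4.4.0. The genome build behind the probes is not given in the sources used here. Of 541 features, the 479 genes were used, with 20 negative control probes as background.

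Members and lists were chosen with earlier results of these data known. Groups came from the sample titles. The minimum was 20 transcripts per cell, no doublet caller was run, and cell positions were not used. A class needed at least 3 transcripts of at least 2 of its markers, 3 times the next class, at least 3 markers on the panel and 200 cells in each section. Thinning drew 50 transcripts per cell without replacement (seed 1) and left out shallower cells. Ratios are of summed counts per 1000000 gene transcripts, without a test. With 1 section per model, leaving out a replicate was not possible. Some listed genes are not reported here and were left out of the lists, that of p53 regulators and targets included. Named genes were *Rb1*, *Trp53*, the pathway list members on the panel, the 5 genes most like each member, and the genes of the rules. The ratios and intervals were tested on Poisson counts simulated with known folds, which is the spread that the intervals assume. Spread between cells, tumors or animals was not simulated. Gene positions are from GENCODE M21 (GRCm38), matched by Ensembl identifier. Scripts ran in Python 3.11.15 with scipy 1.17.1, numpy 2.4.6, matplotlib 3.10.9 and pandas 2.3.3. Alternatives were the tumor rule, the minimum depth, the scaling, the class and cycling rules and the thinning depth.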

Additional observations from a re-analysis of the deposited data

Results flagged for a closer look

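A result that pointed opposite ways in the 2 sections was that of *Trp53* in tumor cells against airway secretory-like cells. The log2 ratio of tumor over airway secretory-like cells was 0.237 in RPR2 and -0.21 in CRPR2, each with a counting interval clear of 0. The difference between the sections was not tested, since each model has 1 section. The neuroendocrine check genes stood in this class at 3.1% of their tumor cell level in RPR2 and at 14.9% in CRPR2. A choice made after seeing the data kept only those airway secretory-like cells that had no neuroendocrine transcript. *Trp53* then stood at 616 and 1151 CPM, against 762 and 845 CPM in tumor cells. The directions were as before, and the log2 ratios were further from 0, at 0.307 and -0.445. All airway secretory-like cells were 3171 and 4156 in number, with 236 and 429 *Trp53* transcripts. Those without neuroendocrine transcripts were 2566 and 1960, with 179 and 266.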

How the results depend on the processing

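No paired analysis was possible because each model has 1 section and the sections share no animal. *Rb1* was higher and *Trp53* lower in tumor than in other cells under every alternative tried, and the number of classes with less *Rb1* (7 and 7 of 7, RPR2 first) or more *Trp53* (5 and 6 of 7) stayed within 1.5 times in each. The log2 ratios of tumor over other cells for *Rb1* were 1.56 and 1.46 with a tumor rule of 2 transcripts or more, 1.83 and 1.84 in tumor cells without any transcript of another class's markers, 1.40 and 1.36 with CPM over the panel without tumor, class and cycling genes, and 1.77 and 1.60 with transcripts per cell. For *Trp53* they were -1.41 and -1.42 with that CPM and -1.03 and -1.18 with transcripts per cell. They were -1.72 for *Trp53* in RPR2 without markers of other classes, from 7 transcripts, 1.63 for *Rb1* in RPR2 with a tumor rule of 8 or more and, by a choice made after seeing the data, 1.56 there against classed cells only. In CRPR2 they were 1.56 for *Rb1* with at least 50 transcripts per cell, -1.22 for *Trp53* with the rule of 2 or more, 1.63 and -1.34 for the 2 genes against cells without tumor gene transcripts, and, in further choices of that kind, 1.65 and -1.21 against cells of 100 transcripts or more, 1.67 for *Rb1* against classed cells and 1.68 against cells without *Mki67* or *Top2a*.

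For cycling over other tumor cells, *Rb1* had log2 ratios of 0.32 and 0.28 per cell, 0.30 and 0.25 with *Pclaf* as a cycling gene, and 0.31 and 0.28 after thinning to 100. In CRPR2 it also had 0.16 after thinning to 30, 0.23 without thinning, 0.24 with the rule of 2 or more and 0.17 with 8 or more. In tumor cells without markers of other classes the ratios were 0.011 and 0.14 for *Rb1* and -1.94 and -0.38 for *Trp53*, so that *Trp53* in CRPR2 changed sign there, with intervals that spanned 0 in all 4. Transcripts per cell gave 0.17 for *Trp53* in CRPR2. CRPR2 over RPR2 was 0.25 for *Rb1* and 0.65 for *Trp53* in tumor cells without those markers and 0.12 for *Rb1* per cell. At 1.5-fold, 4 (RPR2) and 3 (CRPR2) of the 6 p53 genes were higher in tumor cells, beside 25.1% and 23.0% of all panel genes. In CRPR2, 2 of the 2 panel genes listed for the pathway of the retinoblastoma protein were higher at 1.5-fold, beside the same 23.0%. The causes of these shifts were not tested. Shares with a transcript moved with the thinning depth by construction: *Rb1* was found in 26.7% to 66.3% of RPR2 tumor cells and *Trp53* in 2.34% to 8.38%. By Spearman correlation, 3 of the 5 genes most like *Rb1* and 4 of those most like *Trp53* were shared with Pearson's. *Trp53* in tumor cells rests on 0.0908 and 0.0983 transcripts per cell, so single cells cannot be called negative at this depth.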
